A study of Mus musculus with 6 samples.

Results

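The 9 genes described here write, erase or read cytosine methylation: the DNA methyltransferase genes Dnmt1, Dnmt3a and Dnmt3b, the maintenance cofactor Uhrf1, the dioxygenase genes Tet1, Tet2 and Tet3, and the methyl-CpG binding genes Mbd1 and Mbd2. They were taken by symbol from a table of 25628 gene symbols, and all 9 had a row. The table holds raw RNA-seq read counts of mouse TgSpi1 erythroleukaemic cells, line 722, leukaemic erythroid blasts from bone marrow that overexpress the ETS factor PU.1, encoded by Spi1. Both groups carried an inducible shRNA against Spi1 and were grown with erythropoietin. The Dox_Treated group (3 libraries) received doxycycline for 48 h, which turns the shRNA on, and the Dox_Untreated group (3 libraries) received none. All libraries came from 1 line, and no group with doxycycline and another shRNA is among the samples. Loss of Spi1 mRNA and exposure to doxycycline therefore cannot be told apart.

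DNMT1 copies methylation onto the new strand after replication, guided by UHRF1, which recognises half-methylated sites. DNMT3A and DNMT3B set methylation on unmethylated DNA. TET enzymes oxidise methylcytosine in a reaction that uses 2-oxoglutarate, and MBD1 and MBD2 bind methylated CpG, MBD2 as a subunit of the repressive NuRD complex. In human myeloid leukaemia DNMT3A and TET2 are often mutated, and in human monocytes PU.1 has been found in complexes with TET2 and DNMT3B.

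Mbd2 was the member that passed the main test, with 115 CPM in Dox_Treated and 218 CPM in Dox_Untreated cells. Dnmt3b and Mbd1 were lower in every pair of libraries with the same replicate number and passed when that number was a term of the model. For Uhrf1 no difference was detected in either fit. Dnmt1, Dnmt3a, Tet2 and Tet3 varied more between replicate numbers than between Dox_Treated and Dox_Untreated cells. Tet1 was close to the limit of detection.

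Promoter sequence is shown for 2 genes, Dnmt3b as the methyltransferase that passed with the replicate number in the model and Tet2 as the tested member that varied most between libraries. Each run is the 250 bases before the RefSeq start (GRCm38.p6), 5′ to 3′ on the gene's strand, in lower case. Capitals mark GAGGAA, the core of a PU.1 box, which was searched on both strands together with the ETS sequence GGAAGT. These 2 motifs share the letters GGAA.
Dnmt3b, chr2:153649199-153649448, plus strand: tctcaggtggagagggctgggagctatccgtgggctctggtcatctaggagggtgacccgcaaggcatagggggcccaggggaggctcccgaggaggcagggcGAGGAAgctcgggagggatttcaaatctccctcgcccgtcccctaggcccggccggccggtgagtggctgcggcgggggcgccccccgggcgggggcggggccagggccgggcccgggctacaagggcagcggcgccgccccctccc
Tet2, chr3:133544391-133544640, minus strand: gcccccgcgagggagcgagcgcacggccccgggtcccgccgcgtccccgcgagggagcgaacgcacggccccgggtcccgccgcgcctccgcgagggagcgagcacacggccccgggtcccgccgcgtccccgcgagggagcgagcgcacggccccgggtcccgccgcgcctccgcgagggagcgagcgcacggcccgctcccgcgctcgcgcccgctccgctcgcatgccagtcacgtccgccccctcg

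The Dnmt3b window holds 1 GAGGAA on the plus strand and 21 CpG, and 16.3% of all 32851 windows of this length have at least as many CpG. In the Tet2 window there are 51 CpG, a number reached by 0.067% of windows, against a median of 6 CpG over all windows. Neither GAGGAA nor GGAAGT is in the Tet2 window. The GENCODE gene of Tet2 runs to 133545139 on the minus strand, so this window before the RefSeq start lies inside it. The bases before the GENCODE start were not examined. GAGGAA is in 23.3% of all windows and GGAAGT in 19.7%. A match describes the letters and is not evidence of binding. RefSeq windows were matched for 7 members, some with more than 1 window. GAGGAA was also found 3 times in a Dnmt1 window with 2 CpG and once in each of a pair of overlapping Dnmt3a windows. The other Dnmt1 and Dnmt3a windows and those of Tet1, Tet3 and Uhrf1 held none. GGAAGT was found once, in another Dnmt1 window. The shares over all windows are per window and not per gene.

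Depth was high and even, with total counts between 91277560 and 101276319 in Dox_Treated libraries and between 78926663 and 98103600 in Dox_Untreated libraries. Spi1 stood at 84.8, 80.4 and 62.1 CPM (read counts scaled to a common library total with TMM factors) in Dox_Treated replicates 1, 2 and 3, against 415, 353 and 329.6 CPM in Dox_Untreated replicates 1, 2 and 3. This gave a log2 fold change of -2.27 (SE 0.17, edgeR adjusted p = 0.0030). All log2 fold changes here are Dox_Treated over Dox_Untreated, and adjusted p under 0.05 over all 14158 genes tested was the threshold. Erythroid markers summed to between 5328 and 7566 CPM in Dox_Treated libraries and to between 4383 and 5925 CPM in Dox_Untreated libraries, and all 14 were in the table. The largest part was Tfrc, at between 2721 and 3564 CPM in Dox_Treated and between 1761 and 2528 CPM in Dox_Untreated libraries. Markers of stromal and endothelial cells summed to at most 0.365 CPM in Dox_Treated and 0.697 CPM in Dox_Untreated libraries, and B cell markers to at most 0.615 and 2.15 CPM in Dox_Treated and Dox_Untreated libraries. Libraries with the same replicate number resembled each other, and the tested members are therefore also given within numbers and with the number as a term (the block).

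Mbd2 (ENSMUSG00000024513.16, GRCm38 chromosome 18, 70568189 to 70626131, plus strand, protein coding) encodes the methyl-CpG binding subunit that links methylated DNA to NuRD. It stood at 107, 101 and 136 CPM in Dox_Treated replicates 1, 2 and 3, against 207, 226 and 219 CPM in Dox_Untreated replicates 1, 2 and 3. Every Dox_Treated library was below every Dox_Untreated library. The means were 115 ± 18.7 CPM in Dox_Treated and 218 ± 9.50 CPM in Dox_Untreated cells (SD, n = 3 each), a log2 fold change of -0.92 (SE 0.15, edgeR adjusted p = 0.027). Within replicate numbers 1, 2 and 3 the difference was -0.95, -1.16 and -0.69 on the log2 scale, and the block gave -0.93 (SE 0.10, adjusted p = 1.3e-04). Leaving out any library other than Dox_Treated replicate 3 ended this call without the block, with values from -0.93 to -0.84 and adjusted p from 0.063 to 0.126, as did testing without the filter on low counts (adjusted p = 0.0999). Mbd2 fell, and it was the single member called without the block, where 2.59% of all genes tested were called, 2.18% lower and 0.417% higher. No member rose by edgeR, also at an unadjusted p under 0.05, or by DESeq2 (0 in each case).

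Markers of other blood cells moved with the groups and numbers. Neutrophil markers, 10 of 10 in the table, summed to 0.274, 11.6 and 9.83 CPM in Dox_Treated replicates 1, 2 and 3, against 0.622, 43.5 and 10.1 CPM in Dox_Untreated replicates 1, 2 and 3. Number 1, where both sums were under 1 CPM, had a Mbd2 difference of -0.95. The megakaryocyte sums were highest in that same number, at 158.5 CPM in Dox_Treated and 299.5 CPM in Dox_Untreated replicate 1. Megakaryocyte markers summed to between 37.8 and 158.5 CPM in Dox_Treated and between 65.0 and 299.5 CPM in Dox_Untreated libraries, and monocyte and macrophage markers to between 17.3 and 22.7 CPM in Dox_Treated and between 21.2 and 30.2 CPM in Dox_Untreated libraries. Mast cell and basophil markers summed to between 287.6 and 477 CPM in Dox_Treated and between 269.8 and 444 CPM in Dox_Untreated libraries, most of it Gata2, which erythroid precursors also express. Among them Ms4a2, a chain of the IgE receptor, stood at 0.833, 1.01 and 0.316 CPM in Dox_Treated replicates 1, 2 and 3, against 6.78, 10.25 and 1.78 CPM in Dox_Untreated replicates 1, 2 and 3. Fcer1a ran less evenly, at 50.5, 23.5 and 8.3 CPM in Dox_Treated and 61.2, 34.6 and 2.7 CPM in Dox_Untreated replicates 1, 2 and 3. Gata2 was higher in Dox_Treated in numbers 2 and 3 and lower in number 1. T and NK cell markers summed to between 4.89 and 7.41 CPM in Dox_Treated and between 3.11 and 5.19 CPM in Dox_Untreated libraries. In every library most of the megakaryocyte sum was Pf4, most of the monocyte and macrophage sum Ccr2, and most of the T and NK cell sum Lck. With the block 3 of 6 tested mast cell, 3 of 5 monocyte, 4 of 6 megakaryocyte and 1 of 7 neutrophil markers were lower, 1 megakaryocyte and 2 of 2 T and NK cell markers were higher, and of 13 tested erythroid markers 9 were higher and 1 lower. Over all genes tested, the block called 15.6% lower and 10.3% higher. No marker passed without the block, where 2.59% of all genes tested were called. The part of these markers in the members' differences was not tested. In bulk RNA, fewer cells of a type and less mRNA per cell cannot be told apart.

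**Figure D1:**
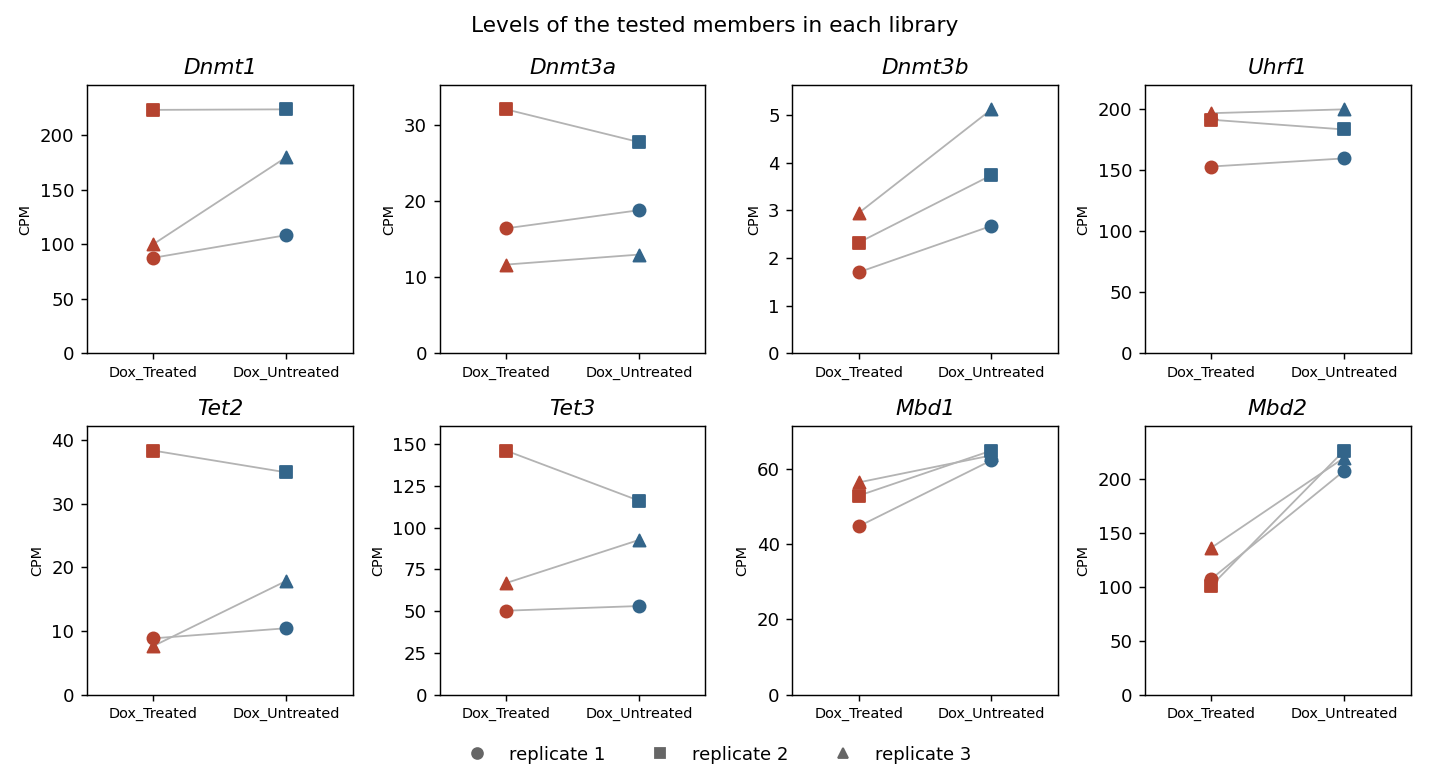
CPM of the 8 tested members in each library, Dox_Treated left and Dox_Untreated right in every panel, with a grey line joining libraries of the same replicate number (circle 1, square 2, triangle 3) and each vertical axis starting at 0. Mbd2 and Mbd1 have no overlap between groups, while Dnmt1, Dnmt3a, Tet2 and Tet3 are highest in both libraries of number 2.

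Mbd1 (ENSMUSG00000024561.10, chromosome 18, 74267605 to 74282732, plus strand) encodes a reader that binds methylated CpG and, through a CXXC domain, also unmethylated CpG. It stood at 44.8, 52.9 and 56.5 CPM in Dox_Treated replicates 1, 2 and 3, against 62.3, 64.9 and 63.6 CPM in Dox_Untreated replicates 1, 2 and 3. The groups did not overlap, which held with Dox_Treated lower for 2 of the 8 tested members and for 11.7% of all genes tested. Over all libraries its log2 fold change came to -0.31 (SE 0.14, edgeR adjusted p = 0.36), and with the block -0.32 (SE 0.096, adjusted p = 0.036). Within numbers 1, 2 and 3 it was -0.48, -0.29 and -0.17. DESeq2 with the block gave an adjusted p of 0.050, just over the threshold.

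Dnmt3b (ENSMUSG00000027478.15, chromosome 2, 153649450 to 153687730, plus strand) encodes one of the enzymes that methylate unmethylated DNA, and its promoter is printed above. It was the least abundant tested member, at 1.70, 2.32 and 2.94 CPM in Dox_Treated replicates 1, 2 and 3, against 2.67, 3.73 and 5.11 CPM in Dox_Untreated replicates 1, 2 and 3. The groups overlapped, since Dox_Treated replicate 3 lay above Dox_Untreated replicate 1, but each Dox_Treated library was below the Dox_Untreated library of its number. Within numbers 1, 2 and 3 the differences were -0.65, -0.69 and -0.80 on the log2 scale. Over all libraries its log2 fold change came to -0.73 (SE 0.33, edgeR adjusted p = 0.36), and with the block -0.71 (SE 0.15, adjusted p = 0.0064). These levels rest on between 155 and 293 counts in Dox_Treated libraries and between 236 and 506 counts in Dox_Untreated libraries. Rodents also carry Dnmt3c, a nearby duplicate of Dnmt3b that is not analysed here, and how reads shared by both were assigned is not given in the sources used here.

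With the block, 3 of the 8 tested members fell, Mbd2, Dnmt3b and Mbd1, where 15.6% of all genes tested were called lower and 25.8% in either direction. The median log2 fold change with the block was -0.35 over the 8 members and -0.0021 over all genes tested. Lower values in all 3 pairs were seen for 4 members, where 29.4% of all genes tested were lower and 28% higher in all 3, and 0 members were higher. The fourth was Dnmt1, whose difference in number 2 was -0.0032.

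**Figure D2:**
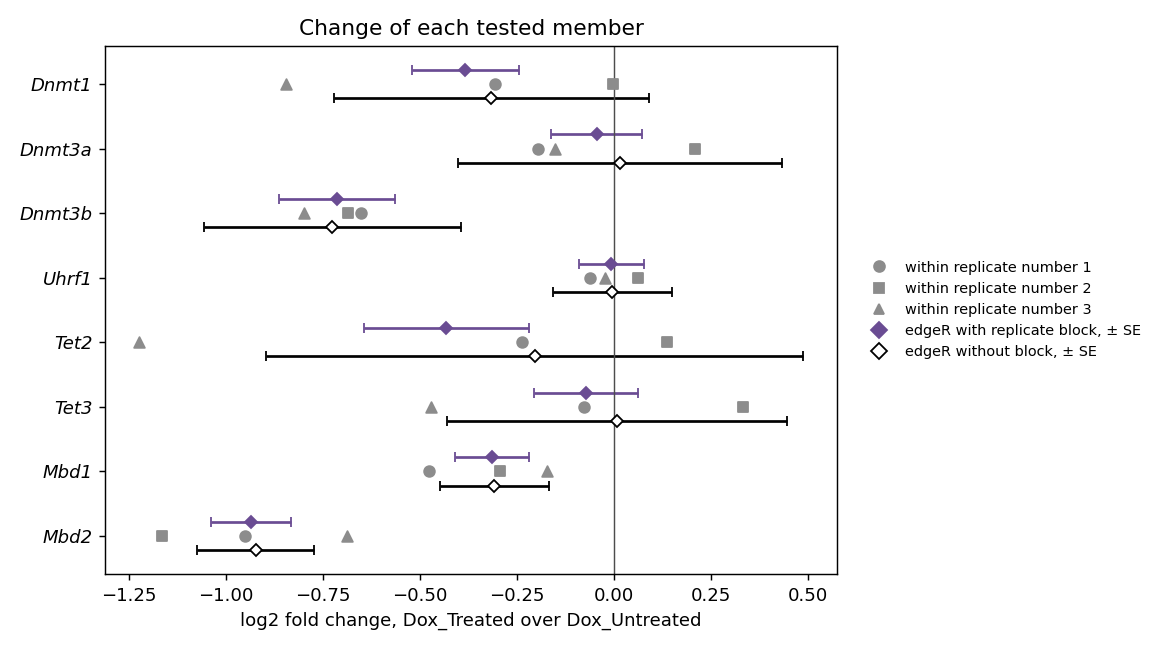
Log2 fold change of each tested member, Dox_Treated over Dox_Untreated, within each replicate number (grey circle, square and triangle for 1, 2 and 3) and from edgeR with the block (filled diamond) and without it (open diamond), bars showing ± SE. The 3 grey points of Mbd2, Dnmt3b and Mbd1 all lie below 0, those of Tet2 run from -1.23 to 0.13, and the bars with the block are narrower in every row.

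Dnmt1 (ENSMUSG00000004099.16, chromosome 9, 20907209 to 20959888, minus strand), the maintenance methyltransferase gene, stood at 87.7, 223 and 100.2 CPM in Dox_Treated replicates 1, 2 and 3. The Dox_Untreated values of replicates 1, 2 and 3 were 108, 224 and 179.8 CPM. The groups overlapped, the libraries of number 2 were the highest in both and differed by less than 1 CPM, and the gap was widest in number 3. Within numbers 1, 2 and 3 the differences were -0.31, -0.0032 and -0.84 on the log2 scale. Over all libraries its log2 fold change came to -0.32 (SE 0.41, edgeR adjusted p = 0.80), and with the block -0.38 (SE 0.14, adjusted p = 0.067). A correction for transcript length within the block moved it to -0.33 (SE 0.12, adjusted p = 0.049).

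Uhrf1 (ENSMUSG00000001228.14, chromosome 17, 56303321 to 56323486, plus strand), whose product brings DNMT1 to replicated DNA, had the steadiest level of the 8 tested members. It stood at 153, 192 and 197 CPM in Dox_Treated replicates 1, 2 and 3, against 159.9, 184 and 200.1 CPM in Dox_Untreated replicates 1, 2 and 3. The groups overlapped throughout, and the highest library was 1.31 times the lowest. Differences within numbers 1, 2 and 3 were -0.061, 0.061 and -0.023 on the log2 scale. Over all libraries this gave a log2 fold change of -0.0048 (SE 0.15, edgeR adjusted p = 0.99) and -0.0076 with the block (SE 0.083, adjusted p = 0.96). The sign of so small a value changed with the scaling, to 0.017 with RLE and 0.034 with upper-quartile factors.

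Dnmt3a (ENSMUSG00000020661.15, chromosome 12, 3806007 to 3914443, plus strand) stood at 16.4, 32.1 and 11.7 CPM in Dox_Treated replicates 1, 2 and 3, against 18.8, 27.8 and 13.0 CPM in Dox_Untreated replicates 1, 2 and 3. Both groups had the same order of numbers, 2 above 1 above 3. The pairs of numbers 1, 2 and 3 differed by -0.20, 0.21 and -0.15 on the log2 scale. Over all libraries its log2 fold change came to 0.015 (SE 0.42, edgeR adjusted p = 0.99) and -0.045 with the block (SE 0.12, adjusted p = 0.81). An antisense gene, Dnmt3aos, shares exonic bases with Dnmt3a and is not analysed here. Strand is not kept by this library kit, so reads of such partners cannot be told apart.

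Tet2 (ENSMUSG00000040943.12, chromosome 3, 133463679 to 133545139, minus strand) stood at 8.84, 38.3 and 7.64 CPM in Dox_Treated replicates 1, 2 and 3. The Dox_Untreated values of replicates 1, 2 and 3 were 10.4, 34.9 and 17.9 CPM. The libraries of number 2 were about as high in both groups and stood far above the others, and the highest library was 5.02 times the lowest. Within numbers 1, 2 and 3 the differences were -0.24, 0.13 and -1.23 on the log2 scale. Over all libraries its log2 fold change came to -0.21 (SE 0.69, edgeR adjusted p = 0.94) and -0.43 with the block (SE 0.21, adjusted p = 0.16). An antisense gene model, Gm42567, overlaps exons of Tet2 and had at most 8 counts in any library.

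Tet3 (ENSMUSG00000034832.15, chromosome 6, 83362373 to 83459084, minus strand) was the most abundant of the 3 dioxygenase genes. It stood at 50.3, 146 and 66.8 CPM in Dox_Treated replicates 1, 2 and 3, against 53.1, 116 and 92.6 CPM in Dox_Untreated replicates 1, 2 and 3. Number 2 was again the highest in both groups. Differences within numbers 1, 2 and 3 were -0.078, 0.33 and -0.47 on the log2 scale. Over all libraries its log2 fold change came to 0.0076 (SE 0.44, edgeR adjusted p = 0.996) and -0.072 with the block (SE 0.13, adjusted p = 0.73).

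Tet1 (ENSMUSG00000047146.17, chromosome 10, 62804570 to 62908996, minus strand) did not reach the filter on low counts and was not tested. Its deposited counts were 4, 7 and 4 in Dox_Treated replicates 1, 2 and 3, against 7, 15 and 36 in Dox_Untreated replicates 1, 2 and 3. The lowest deposited value of any gene is 1, so a value of 4 lies close to the floor. These are 0.0438, 0.0730 and 0.0395 CPM in Dox_Treated replicates 1, 2 and 3, against 0.0792, 0.190 and 0.367 CPM in Dox_Untreated replicates 1, 2 and 3. The counts of the groups met at 7, and in CPM every Dox_Treated library was below every Dox_Untreated library. Fitted without the filter, Tet1 had a log2 fold change of -1.97 (SE 0.63, edgeR adjusted p = 0.35), a value that depends on few counts.

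Per kilobase of the longest annotated transcript the members kept nearly the same ranking in both groups. In Dox_Treated cells Mbd2 at 58.7 ± 9.59 and Uhrf1 at 50.4 ± 6.65 CPM per kb came first and lay within their spread of each other (SD, n = 3). Dnmt1 at 23.3 ± 12.8, Mbd1 at 18.1 ± 2.11, Tet3 at 8.0 ± 4.7, Dnmt3a at 2.1 ± 1.1, Tet2 at 2.0 ± 1.9 and Dnmt3b at 0.537 ± 0.144 CPM per kb followed (SD, n = 3). In Dox_Untreated cells Mbd2 stood alone at 111 ± 4.87 CPM per kb, above Uhrf1 at 50.5 ± 5.64 CPM per kb (SD, n = 3). Below them were Dnmt1 at 29.1 ± 9.91, Mbd1 at 22.4 ± 0.456, Tet3 at 8.0 ± 2.9, Tet2 at 2.29 ± 1.37, Dnmt3a at 2.05 ± 0.770 and Dnmt3b at 0.889 ± 0.283 CPM per kb (SD, n = 3). In both groups Tet2 and Dnmt3a did not differ beyond their spread, and neither did Dnmt1 and Mbd1. The lengths, from 1953 bases for Mbd2 to 10904 bases for Tet3, are those of GENCODE M21, and the transcripts used in these cells may be shorter.

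The replicate number was tested as a term of its own, a test added after its effect was seen. It passed for 6 of the 8 tested members and for 43.3% of all genes tested. The adjusted p was 4.3e-04 for Dnmt3a, 6.1e-04 for Tet2, 7.0e-04 for Tet3, 0.0013 for Dnmt1, 0.012 for Dnmt3b and 0.046 for Uhrf1. For Mbd1 (adjusted p = 0.38) and Mbd2 (adjusted p = 0.28) no effect of the number was detected. The mean of number 2 was the highest for Dnmt1 (223 CPM, against 98.0 CPM in number 1), Dnmt3a (29.9 CPM, against 12.3 CPM in number 3), Tet2 (36.6 CPM, against 9.64 CPM in number 1) and Tet3 (131 CPM, against 51.7 CPM in number 1). Dnmt3b differed from these, with 4.03 CPM in number 3 and 2.19 CPM in number 1. What the numbers mark is not described in the labels.

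The libraries also differed by transcript length, and the 4 members highest in number 2 have the longest transcripts of the 8 tested. Genes with transcripts over 8000 bases had median deviations from the mean of the 6 libraries of -0.37, 0.40 and -0.29 (log2) in Dox_Treated replicates 1, 2 and 3, and of -0.26, 0.47 and 0.10 in Dox_Untreated replicates 1, 2 and 3. Genes with transcripts up to 1000 bases ran the other way, at 0.19, -0.14 and 0.20 in Dox_Treated replicates and 0.067, -0.22 and -0.060 in Dox_Untreated replicates 1, 2 and 3. Long transcripts were thus relatively high in both libraries of number 2. Within numbers 1, 2 and 3 the median difference of the longest class was -0.11, -0.0020 and -0.40. The differences of Tet2, Tet3 and Dnmt1 were also lowest in number 3, while that of Dnmt3a was lowest in number 1. Dnmt1, at 5870 bases, is in the class from 4000 to 6000 bases. The medians of that class within numbers 1, 2 and 3 were -0.014, 0.0067 and -0.12, against -0.84 for Dnmt1 in number 3. Dnmt3a, in the longest class, deviated by -0.52 in Dox_Untreated replicate 3, against 0.10 for the class. The part of transcript length in the members' differences was examined with a correction added after the data were seen, a smooth curve of deviation against length removed from each library. With it the number passed for 5 of the 8 tested members and 39.3% of all genes tested. These were Tet2 (adjusted p = 5.8e-04), Dnmt3a (adjusted p = 0.0015), Dnmt1 (adjusted p = 0.0022), Tet3 (adjusted p = 0.0089) and Dnmt3b (adjusted p = 0.011), while Uhrf1 missed the threshold (adjusted p = 0.066). With the correction and the block together, 4 of the 8 tested members were called lower, Dnmt1 included, where 28% of all genes tested were called and 17.7% lower. The log2 fold change of Mbd2 was then -0.94 (SE 0.097, adjusted p = 1.9e-05), that of Dnmt3b -0.70 (SE 0.15, adjusted p = 0.0041) and that of Mbd1 -0.30 (SE 0.093, adjusted p = 0.029).

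**Figure D3:**
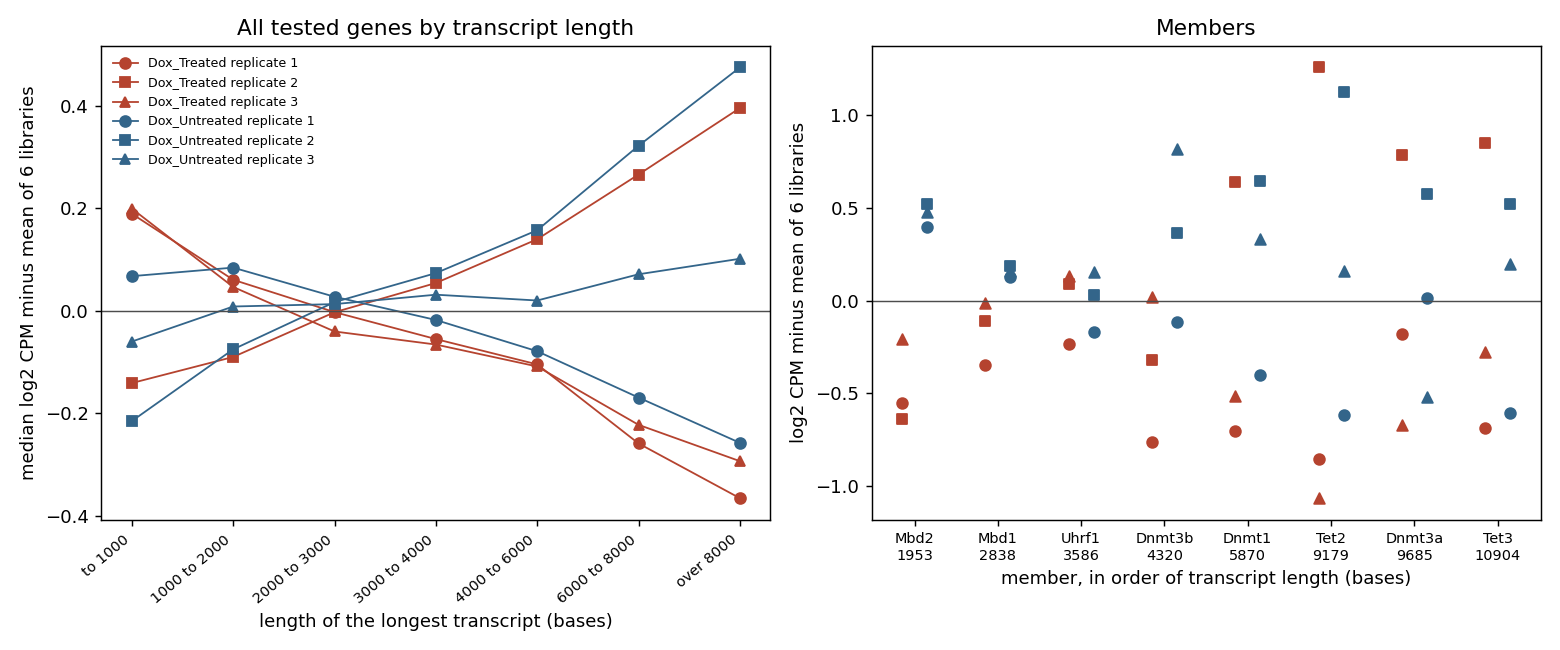
Left, the median deviation of log2 CPM from the mean of the 6 libraries, for tested genes in 7 classes of transcript length, 1 line per library (Dox_Treated red, Dox_Untreated blue; circle, square and triangle for replicates 1, 2 and 3). Right, the same deviation for each tested member in order of length, Dox_Treated left of Dox_Untreated: both squares are high for Dnmt1, Tet2, Dnmt3a and Tet3, and for Mbd2 the groups stand apart.

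Genes whose levels over the 6 libraries followed a member most closely were sought among 9300 genes of at least 5 CPM, by Pearson correlation of log2 CPM, as a description. Mbd2 was followed by Inpp4b, a phosphoinositide phosphatase gene (r = 0.999), Gnb4, a G protein beta subunit gene (r = 0.998), and 1110032A03Rik (r = 0.997). Chosen for this likeness, Inpp4b and Gnb4 were also lower, by 1.33 and 1.26 on the log2 scale (edgeR adjusted p = 0.024 and 0.017). As for Mbd2, most of these calls were lost with a library left out, Inpp4b passing without Dox_Treated replicate 3 (adjusted p = 0.016) and Gnb4 without that library (adjusted p = 0.018) or Dox_Untreated replicate 3 (adjusted p = 0.045). Dnmt3b was followed by Adcy7, Brip1 and Csf2rb (r = 0.996, 0.995 and 0.994), whose log2 fold changes with the block were -0.79, -0.46 and -2.20 (adjusted p = 1.5e-04, 0.0076 and 2.1e-06). Mbd1 was followed by Mief1, Tmem161a and Nagpa (r = 0.991, 0.991 and 0.985), none of which passed either fit. The 6 points share the grouping and the replicate numbers. Because these genes were picked for likeness in the same libraries, their differences and adjusted p are not independent of those of the members.

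Of 12 tested methyltransferase and maintenance genes 0 passed edgeR without the block, where 2.59% of all genes tested were called. There were also 0 at an unadjusted p under 0.05 and 0 by DESeq2. With the block Dnmt3b fell and Pcna, the replication clamp that DNMT1 binds, rose. These were 2 of 12, where 25.8% of all genes tested were called. With the length correction and the block 1 of the list was higher and 2 lower, where 28% of all genes tested were called. Pcna averaged 589 ± 145 CPM in Dox_Treated and 477 ± 95.7 CPM in Dox_Untreated cells (SD, n = 3 each), a block log2 fold change of 0.30 (SE 0.093, adjusted p = 0.040). The chromatin remodeller Hells, needed for methylation of repeats, and Uhrf2 did not pass either fit. Dnmt3l, the inactive partner of the DNMT3 enzymes, was at the lowest deposited value in all 6 libraries. The median block log2 fold change of the list was 0.0019.

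Of 20 tested genes of the TET pathway and of base excision, 0 passed edgeR without the block, where 2.59% of all genes tested were called. At an unadjusted p under 0.05, 2 were higher and 1 lower. DESeq2 called the same numbers, and over all genes it called 291 higher and 722 lower. With the block 2 of 20 genes rose, Gadd45a among them, and Idh1 fell, where 25.8% of all genes tested were called. Idh1 encodes the cytosolic isocitrate dehydrogenase that makes 2-oxoglutarate, the TET cosubstrate. It stood at 39.6, 25.5 and 20.0 CPM in Dox_Treated replicates 1, 2 and 3, against 64.9, 49.0 and 47.4 CPM in Dox_Untreated replicates 1, 2 and 3, without overlap. Its block log2 fold change was -0.97 (SE 0.12, adjusted p = 2.3e-04; adjusted p = 0.16 without the block). Gadd45a, a gene of the response to DNA damage and stress, stood at 46.1, 38.3 and 72.0 CPM in Dox_Treated and at 22.6, 22.1 and 31.3 CPM in Dox_Untreated replicates 1, 2 and 3 (block log2 fold change 1.01, SE 0.11, adjusted p = 1.1e-04). With the length correction and the block 2 of the list were higher and 3 lower, where 10.3% and 17.7% of all genes tested were. The median block log2 fold change of the list was -0.0078.

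Among 14 tested genes of methyl-CpG readers and their relatives by domain, Mbd2 fell and none rose without the block. Binding of methylated CpG by the relatives, such as Mbd3 and Baz2b, was not measured here. With the block 4 of 14 fell, Mbd2, Mbd1, Baz2b and Zbtb38, and none rose, where 15.6% of all genes tested were called lower and 10.3% higher. Baz2b, a bromodomain gene with a domain related to that of the MBD proteins, stood at 18.3, 55.0 and 19.8 CPM in Dox_Treated replicates 1, 2 and 3, against 28.6, 70.5 and 53.8 CPM in Dox_Untreated replicates 1, 2 and 3. Its block log2 fold change was -0.81 (SE 0.17, adjusted p = 0.0071), and like Tet2 it was highest in number 2. Zbtb38, a zinc finger reader, had -0.30 (SE 0.094, adjusted p = 0.042), and lost its call with the length correction (adjusted p = 0.12). Mbd3, the relative of Mbd2 that occupies the same place in NuRD, had -0.038 with the block (adjusted p = 0.79). The choice of Mbd3 was made with its values known. The list's median with the block was -0.15.

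Of 15 tested NuRD subunits Mbd2 alone passed without the block. With it Mbd2, Chd3 and Chd4 fell and Mta1 and Chd5 rose, so 5 of 15 were called, where 25.8% of all genes tested were. Chd4, the main ATPase of the complex, stood at 167, 502 and 201 CPM in Dox_Treated replicates 1, 2 and 3, against 231, 526 and 372 CPM in Dox_Untreated replicates 1, 2 and 3 (block -0.47, SE 0.14, adjusted p = 0.029). Chd3, its relative, had -0.86 (SE 0.21, adjusted p = 0.014), the scaffold gene Mta1 0.32 (SE 0.087, adjusted p = 0.023) and the scarce Chd5, at under 1 CPM on average, 0.78 (SE 0.25, adjusted p = 0.043). Like that of Dnmt1, the differences of Chd3 and Chd4 were lowest in number 3, at -1.61 and -0.88. With the length correction and the block this list also had 2 genes higher and 3 lower, where 10.3% and 17.7% of all genes tested were. Of 10 tested CXXC genes 0 passed without the block (0 at an unadjusted p under 0.05, 0 by DESeq2), and with it Kdm2a, a histone H3 lysine demethylase gene, had -0.31 (SE 0.097, adjusted p = 0.043) and fell beside Mbd1. These were 2 of 10, where 15.6% of all genes tested were called lower. DESeq2 with the block called 0 of these 10, and with the length correction Kdm2a had an adjusted p of 0.090.

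**Figure D4:**
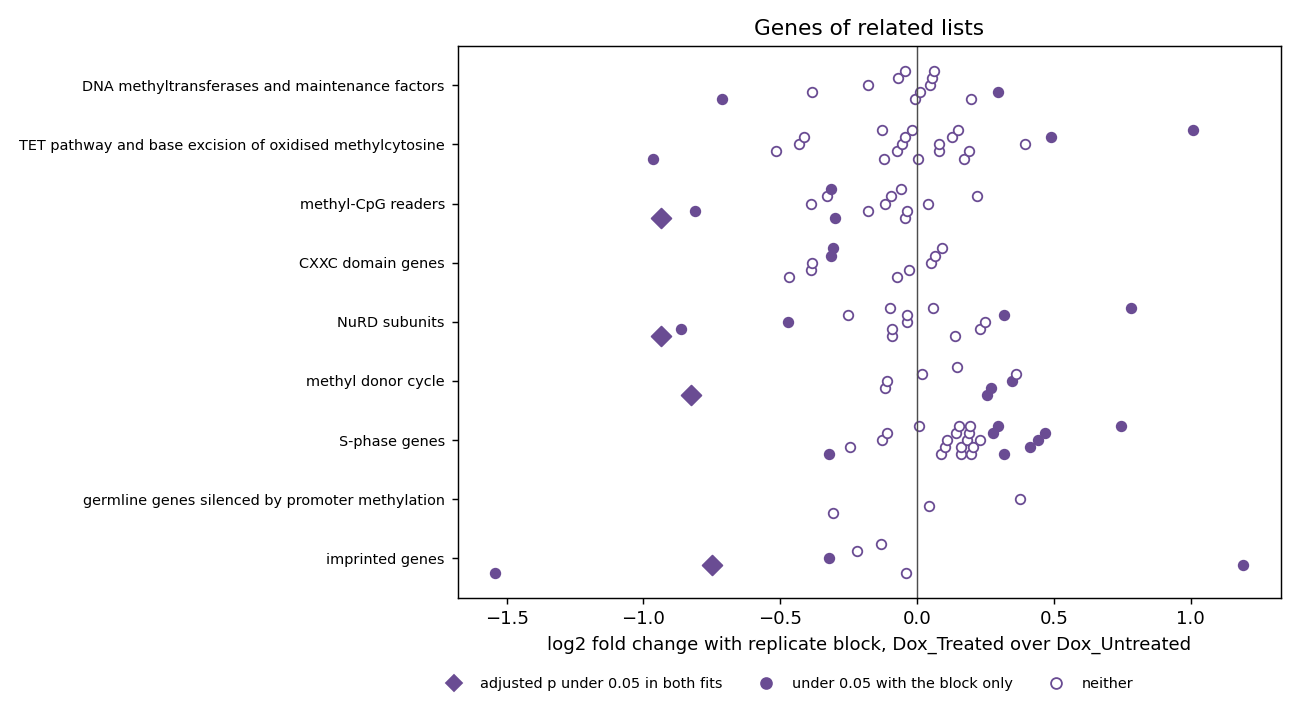
Log2 fold change with the block, Dox_Treated over Dox_Untreated, of every tested gene in 9 lists around DNA methylation, 1 point per gene and list. Diamonds passed in both fits (Mbd2, which is in both the reader and NuRD lists, Ahcyl2 and Impact), filled circles with the block alone, open circles in neither; points of the S-phase list lie mostly right of 0.

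The methyl donor cycle and the S phase were looked at because methylation needs S-adenosylmethionine and follows replication. Of 9 tested donor cycle genes Ahcyl2 fell without the block, at 41.6, 43.1 and 46.1 CPM in Dox_Treated replicates 1, 2 and 3, against 75.4, 87.7 and 69.7 CPM in Dox_Untreated replicates 1, 2 and 3. This gave a log2 fold change of -0.83 (SE 0.14, edgeR adjusted p = 0.032). With the block it was -0.83 (SE 0.10, adjusted p = 2.9e-04), and within numbers 1, 2 and 3 it was -0.86, -1.02 and -0.60. Without the block the call was lost with any 1 library left out, at adjusted p from 0.057 to 0.15. AHCYL2 resembles the hydrolase of S-adenosylhomocysteine but is known mainly as a regulator of ion transport. With the block Mat2b (0.35, adjusted p = 0.017), the regulatory subunit gene of methionine adenosyltransferase, Mtrr (0.27, adjusted p = 0.040) and Ahcyl1 (0.26, adjusted p = 0.045) rose, 3 of 9 genes where 10.3% of all genes tested were called higher. Of 25 tested S-phase genes 0 passed edgeR without the block, where 2.59% of all genes tested were called. At an unadjusted p under 0.05, 5 were higher and 0 lower, and 0 passed DESeq2. With the block 7 rose and 1 fell, where 10.3% of all genes tested were called higher and 15.6% lower. Those with the smallest adjusted p were Ccne1, cyclin E1 (0.75, adjusted p = 2.2e-04), the replication gene Gins1 (0.47, adjusted p = 0.0056) and the origin licensing gene Cdc6 (0.41, adjusted p = 0.0057). The list's median was 0.18 with the block, beside the values of -0.38 for Dnmt1 and -0.0076 for Uhrf1, both commonly counted with S-phase genes.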

How the data were processed

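The authors deposited raw read counts per gene symbol, 1 column for each of the 6 poly(A) RNA libraries, made with an Illumina TruSeq RNA v2 kit per the labels' protocols. The submitters' processing notes name bcl2fastq 2.17.1.14, STAR, DESeq2 and the builds mm10 and GRCm38. Which counter, annotation and strand setting were used is unstated in the sources at hand. The lowest deposited value is 1 in every column, and the counts were used as deposited. Columns were matched to samples by name, and groups came from the titles. The labels call the libraries biological replicates, and p-values measure the spread between them.

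Group differences were tested with the two-sided quasi-likelihood F test of edgeR 4.0.16 (limma 3.58.1 and R 4.3.3), after TMM scaling and filterByExpr, with Benjamini-Hochberg adjustment over every tested gene. The design held no term but the group. Standard errors are the log2 fold change over the root of its F statistic. The block adds the replicate number. Deviations from group means correlated at 0.76, 0.73 and 0.72 within numbers 1, 2 and 3, so the numbers were taken to pair the libraries. The block leaves 2 residual degrees of freedom in place of 4 and lowered the common biological coefficient of variation to 11.3%, against 28.6% without it. DESeq2 1.42.0 was an alternative. Likeness was computed on log2(CPM + 0.5). Transcript lengths and coordinates came from GENCODE M21 (GRCm38), with a length for 13893 of 14158 tested genes, and promoters from RefSeq. The fits were tested on simulated data.

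The members and the gene lists were chosen with earlier results of these data known. Named genes were all members, Spi1, list genes called without the block or else up to 3 with the smallest block adjusted p or else the most abundant, and the 3 genes most like each called member. Others are said to be picked after their values were seen, or complete a count of 5 or fewer. The 9 related lists and 8 marker sets were used, and symbols without a row were not analysed here. Some genes of the related lists are counted but not reported here by name.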

Additional observations from a re-analysis of the deposited data

How the results depend on the processing

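The number of genes called was 367 in the fit without the block, 1013 by DESeq2 (291 higher and 722 lower, against 59 and 308 in the fit without the block), 66 without the filter, 3658 with the replicate block, 3402 with the block by DESeq2 and 3962 with the block and the length correction, and it lay between 38 and 268 when a library was left out. Of the members 1 was called in the fit without the block and by DESeq2, 0 without the filter, 3 with the block, 2 with the block by DESeq2, 4 with the block and the length correction (Dnmt1 joined), and 0 to 1 with a library left out. Mbd2 kept its direction in 15 of 15 alternatives, from -1.05 to -0.84, and Spi1, Dnmt3b, Mbd1 and Dnmt1 kept theirs. The values of Uhrf1, Dnmt3a and Tet3, near 0 without the block, changed sign. So did that of Tet2, at -0.21 (SE 0.69) without the block. Uhrf1 had 0.017 with RLE scaling and by DESeq2, 0.034 with upper-quartile scaling, 0.039 without the filter, 0.013 with the block by DESeq2, 0.0063 with the length correction and 0.0038 with that and the block, and from -0.067 to 0.10 with a library left out. Dnmt3a had -0.045 with the block, -0.025 with the block by DESeq2 and from -0.50 to 0.33 with a library left out. Tet3 had -0.072, -0.052 and from -0.58 to 0.29 in the same settings. Tet2 had from -1.35 to 0.37 with a library left out, and was above 0 without Dox_Treated replicate 1, Dox_Treated replicate 3 or Dox_Untreated replicate 2. None of these 4 was called in any setting, and the cause of their changes was not tested. In edgeR without the length correction, pairing by replicate number changed the calls of Dnmt3b and Mbd1 and of no other member. By DESeq2 it changed that of Dnmt3b alone, and with the length correction also that of Dnmt1. Taking 1 off each value changed no member's call. The replicate number differed for 4 to 7 members with a library left out and for 4 to 6 under the other settings. Over all genes it differed for 2074 to 8802 with a library left out and for 4064 to 6420 under the other settings. The count of genes tested was not the same in every setting. Dnmt3b and Tet1 had the fewest counts of the members, at most 506 and 36 in a library, and Tet1 is limited by depth.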

Other observations

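Genes that promoter methylation is known to keep silent outside the germ line were scarce in both groups. Of 15 such genes 11 had a row and 3 could be tested (Dazl, Ddx4 and Brdt). None passed, with 0 called by edgeR with or without the block, 0 at an unadjusted p under 0.05 and 0 by DESeq2. Ddx4, the most abundant, stood at 0.351, 0.185 and 1.11 CPM in Dox_Treated replicates 1, 2 and 3, against 0.249, 0.217 and 0.738 CPM in Dox_Untreated replicates 1, 2 and 3. Taf7l had the highest count of the 8 untested genes, 10 in Dox_Treated replicate 3.

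Of 18 imprinted genes 11 had a row and 7 were tested. Impact, which encodes an inhibitor of the kinase GCN2, fell. It stood at 15.7, 17.9 and 16.0 CPM in Dox_Treated replicates 1, 2 and 3, against 27.1, 27.97 and 28.2 CPM in Dox_Untreated replicates 1, 2 and 3, a log2 fold change of -0.75 (SE 0.14, edgeR adjusted p = 0.042). With the block it was also called (-0.75, SE 0.10, adjusted p = 5.6e-04), and without the block the call was lost with any 1 library left out, at adjusted p from 0.067 to 0.196. With the block Mest (-1.54, adjusted p = 0.0014) and Phlda2 (-0.32, adjusted p = 0.034) also fell, 3 of 7 in all where 15.6% of all genes tested were called lower, and Cdkn1c, the gene of the CDK inhibitor p57 (1.19, adjusted p = 0.010), rose. DESeq2 with the block called 3 of the 7 lower and 0 higher, so the rise of Cdkn1c was not called there. Mest and Cdkn1c averaged under 1 CPM in both groups. No methylation was measured in these samples.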
